A study of Homo sapiens with 8 samples.

Results

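The 10 genes followed here encode amino acid transporters of the plasma membrane (SLC7A11, SLC3A2, SLC7A5, SLC7A1, SLC1A4, SLC1A5, SLC38A1, SLC38A2, SLC6A9 and SLC43A1) and were measured by RNA-seq in MDA-MB-231 cells exposed to EMD37. They were chosen by name, with earlier results of these data known, and all 10 were found by Ensembl ID among the 36715 genes of the count table. Further gene lists used below were chosen in the same way. Counts set beside shares of all genes are therefore descriptions and not tests of the lists. All 10 also passed the filter on low counts, so they stood among the 14850 genes tested. The groups were EMD37 at 0.5 µM for 12 h, vehicle (DMSO) for 12 h, EMD37 at 0.5 µM for 24 h and vehicle for 24 h. Each group had 2 libraries, replicate A and replicate B. All groups share the parent line, an established triple-negative breast cancer line, and a DMEM medium with L-glutamine and serum. EMD37 is known here by its code name, and the series title links it to endoplasmic reticulum (ER) stress. Nothing in the labels tells whether A and B came from separate cultures, and p-values therefore reflect only how far these libraries differ, which may be technical.

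Amino acid transporters carry their substrates across the cell surface as uniporters, sodium-coupled pumps or exchangers that bring in one amino acid and release another. When amino acids run short or unfolded protein gathers in the ER, kinases that phosphorylate eIF2α slow protein synthesis and favour translation of the transcription factor ATF4. ATF4, often paired with C/EBP proteins, is known to raise genes of amino acid uptake and synthesis, and several of these transporters are textbook targets. Cancer cells use them for protein synthesis, for glutathione and for signalling through mTORC1.

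Counted reads ran between 8.99 M and 11.44 M (M, mega) over the libraries, and replicates correlated at 0.988 to 0.992 on the log2 scale. Levels are CPM, the reads of a gene per M of counted reads after TMM scaling, and errors are standard deviations over 2 libraries or standard errors of the fitted log2 fold change. A gene was called where edgeR's quasi-likelihood p, after Benjamini-Hochberg adjustment over all genes tested, was below 0.05. Markers of the cell line were checked first. VIM (1283 to 1739.6 CPM), AXL (964 to 1280.1 CPM) and CD44 (899 to 1270.1 CPM) were abundant. The receptors ESR1, PGR and ERBB2 stayed at or below 5.18 CPM, and summed leukocyte markers (5 genes, LYZ at 0) lay between 0.676 and 2.05 CPM. The 6 luminal markers summed to between 405 and 537 CPM, nearly all from KRT18 (258 to 336 CPM) and KRT8 (115 to 197 CPM), while EPCAM and CDH1 had at most 3 reads in any library. In bulk RNA, a change in the number of cells that express a gene and a change in its RNA per cell cannot be told apart.

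Promoter windows were searched for the core of the C/EBP-ATF response element, to which ATF4 dimers bind, since most of these genes moved together. RefSeq sequences on GRCh38.p14, from 250 bases before to 50 bases after each annotated start, gave 16 windows for 9 of the 10 genes, SLC7A11 aside. The letters TGATGNAA, on either strand, were found in 5 of the 16 windows, 1 each for 5 genes, and in 3.62% of all 35116 windows of that length. Each match is given in a 30-base stretch, 5′ to 3′ on the gene's own strand, with the 8 matched bases in capitals. TTNCATCA is the same element read on the opposite strand.
SLC1A4: cggctcccgtTTGCATCAtctccagccggc
SLC3A2: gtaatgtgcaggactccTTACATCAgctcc
SLC38A1: cagacccgaaTGATGAAAagggatcagcta
SLC7A1: ggcgcactgcTGATGAAAcctggcgccgga
SLC1A5: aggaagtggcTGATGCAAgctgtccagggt
They lie at chr2:64989382-64989411 for SLC1A4 and chr11:62881719-62881748 for SLC3A2, both on the plus strand. On the minus strand they lie at chr12:46266501-46266530 for SLC38A1, chr13:29595662-29595691 for SLC7A1 and chr19:46784892-46784921 for SLC1A5. The first matched base stood 7 bases before an annotated start of SLC1A4 (-7), 37 after a start of SLC3A2 and 4 before a start of SLC38A1 (-4). It stood 7 after the start of SLC7A1 and 97 before a downstream start of SLC1A5 (-97). The start of SLC7A1 is at the outer edge of the gene's span, while the other starts lie within their genes' spans. The core of the antioxidant response element, TGACNNNGC on either strand, was in 4 of the 16 windows (SLC3A2, SLC7A1, SLC7A5 and SLC1A5) and in 13.3% of all windows. The E-box CACGTG was in 3 (SLC43A1, SLC7A5 and SLC1A5) and in 7.26% of all windows. A match is a stretch of letters and not a shown binding site, and no match says nothing of more distant elements.

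The question of the treatment comparison was what EMD37 does to each transporter at each time. At 12 h EMD37 raised 7 of the 10 transporters and lowered 0, against 5.27% of all tested genes called higher and 3.43% called lower. The median log2 change was 0.47 for the 10 genes and -0.01 for all genes tested. At 24 h EMD37 raised 9 of 10 and lowered 0, against 19.6% of all genes called higher and 21.1% called lower, with a median of 1.22 for the 10 genes and -0.03 for all genes. By edgeR 0 members were lower even at an unadjusted p below 0.05 at either time, and DESeq2 called 0 lower. SLC43A1 was the member called at neither time. The 12 h count ran from 3 to 9 when 1 library at a time was left out, and stood at 3 without vehicle replicate A at 12 h and at 4 without EMD37 replicate A or EMD37 replicate B at 12 h. It was 9 without vehicle replicate A or vehicle replicate B at 24 h. The 24 h count ran from 8 to 10.

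**Figure D1:**
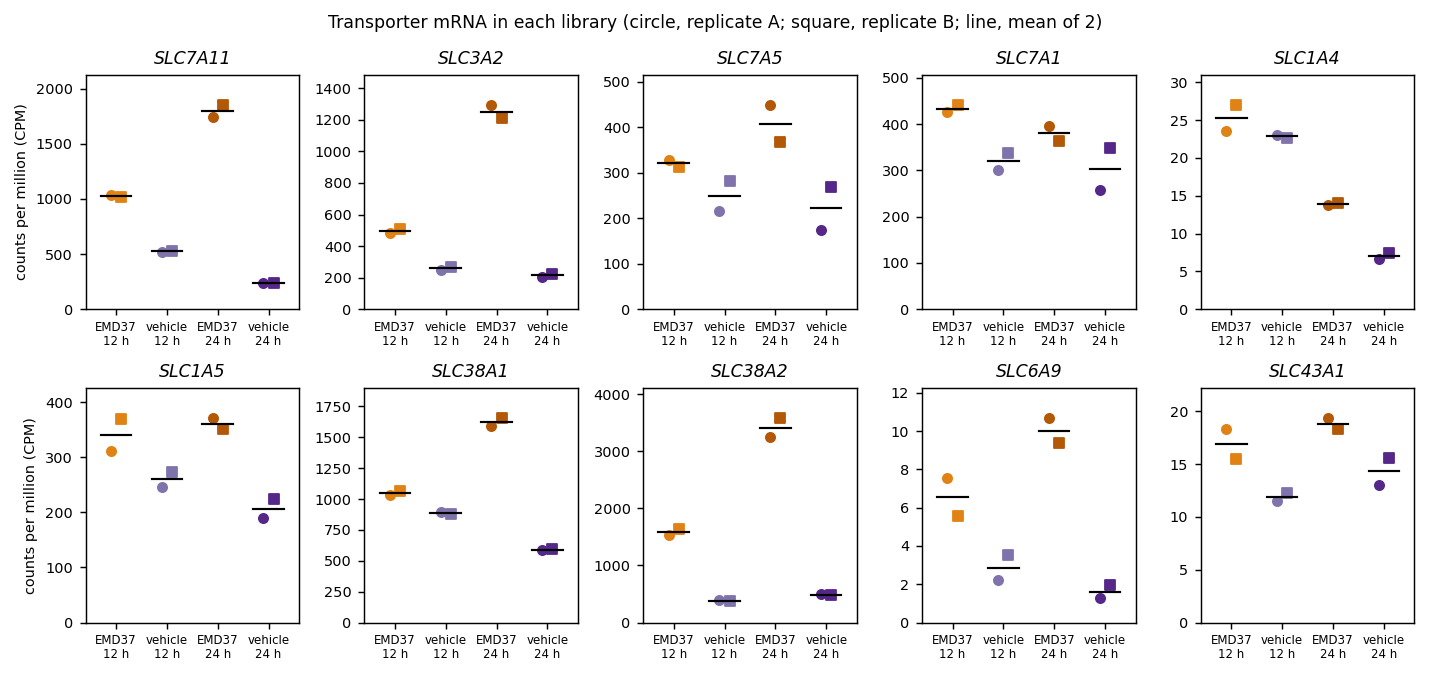
Each panel plots 1 transporter's CPM (y axis, from 0) in the 8 libraries, by group (x axis); circles are replicate A, squares replicate B and lines the mean of 2. SLC38A2, SLC7A11 and SLC3A2 stand far above vehicle with EMD37 at 24 h, while SLC1A4 is lower at 24 h than at 12 h under both treatments.

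SLC7A11 and SLC3A2 encode the light and heavy chains of the cystine/glutamate exchanger system xc-. SLC7A11 (ENSG00000151012, chromosome 4, 138164097 to 138242349 on hg38, minus strand) does the exchange and supplies cystine for glutathione. It had 1031 and 1017 CPM in EMD37 libraries at 12 h, against 521 and 528 CPM in vehicle libraries. At 24 h it had 1745 and 1849 CPM with EMD37, against 241 and 238 CPM with vehicle. Every EMD37 library stood above every vehicle library at both times. The vehicle libraries at 24 h were also well below those at 12 h. SLC7A11 rose by log2 0.97 (standard error 0.07, 1.95-fold) at 12 h and by 2.91 (0.08, 7.50-fold) at 24 h, with edgeR adjusted p = 1.08e-07 and 1.32e-13. Of its exonic bases, 9.0% overlap the antisense SLC7A11-AS1, whose reads this unstranded kit cannot separate.

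SLC3A2 (ENSG00000168003, chromosome 11, 62856102 to 62888875, plus strand) encodes the glycoprotein that carries SLC7A11, SLC7A5 and related light chains to the cell surface. It had 484 and 507 CPM in EMD37 libraries at 12 h, against 251 and 269 CPM in vehicle libraries. In the 24 h libraries it had 1293 and 1211 CPM with EMD37, against 205 and 224 CPM with vehicle. The treated and vehicle libraries did not overlap at either time. SLC3A2 rose by log2 0.93 (standard error 0.08, 1.91-fold) at 12 h and by 2.54 (0.08, 5.83-fold) at 24 h, with edgeR adjusted p = 4.36e-07 and 9.42e-13.

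SLC38A2 and SLC38A1 encode sodium-coupled pumps for small neutral amino acids such as alanine and glutamine. SLC38A2 (ENSG00000134294, chromosome 12, 46358189 to 46372867, minus strand) is the member long known to respond to amino acid shortage. It had 1540.1 and 1641 CPM in EMD37 libraries at 12 h, against 396 and 372 CPM in vehicle libraries. After 24 h it had 3255 and 3576 CPM with EMD37, against 503 and 478 CPM with vehicle. The groups stood far apart at both times. SLC38A2 rose by log2 2.05 (standard error 0.08, 4.14-fold) at 12 h, the largest change among the 10 at that time, and by 2.80 (0.09, 6.97-fold) at 24 h. The edgeR adjusted p was 4.04e-11 and 4.99e-13. By log2 change it ranked 75 of 14850 genes at 12 h and 112 at 24 h, where SLC7A11 ranked 101, SLC6A9 128 and SLC3A2 136.

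SLC38A1 (ENSG00000111371, chromosome 12, 46183063 to 46270017, minus strand) lies next to SLC38A2 on the same chromosome. It had 1036 and 1066 CPM in EMD37 libraries at 12 h, against 892 and 876 CPM in vehicle libraries. At 24 h it had 1595 and 1652 CPM with EMD37, against 584 and 598 CPM with vehicle. The small gap at 12 h widened at 24 h as the treated libraries went up and the vehicle libraries went down. SLC38A1 rose by log2 0.25 (standard error 0.07) at 12 h, with edgeR adjusted p = 0.0416, and by 1.46 (0.07, 2.75-fold) at 24 h, with adjusted p = 2.26e-10. The 12 h call ended under 9 of 14 alternatives, among them each of the 4 libraries of that time left out (edgeR adjusted p from 0.164 to 0.313) and RLE scaling (0.0657).

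SLC1A5 and SLC1A4 encode sodium-dependent neutral amino acid exchangers, the first a main route for glutamine and the second for alanine, serine, cysteine and threonine. SLC1A5 (ENSG00000105281, chromosome 19, 46774883 to 46788594, minus strand) had 312 and 369.8 CPM in EMD37 libraries at 12 h, against 247 and 274 CPM in vehicle libraries. In the 24 h libraries it had 371 and 351 CPM with EMD37, against 190.3 and 224 CPM with vehicle. Treated libraries were higher at both times without overlap. SLC1A5 rose by log2 0.39 (standard error 0.10) at 12 h and by 0.80 (0.10, 1.74-fold) at 24 h, with edgeR adjusted p = 0.0167 and 5.54e-06. The 12 h call ended without replicate A of vehicle (0.192) or replicate B of EMD37 (0.293) at that time. Other genes, an antisense transcript above all, share 23.8% of the exonic bases of SLC1A5.

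SLC1A4 (ENSG00000115902, chromosome 2, 64988477 to 65023865, plus strand) had far fewer reads, from 69 to 271 per library. It had 23.5 and 27.0 CPM in EMD37 libraries at 12 h, against 23.1 and 22.7 CPM in vehicle libraries. After 24 h it had 13.7 and 14.0 CPM with EMD37, against 6.66 and 7.43 CPM with vehicle. All 4 libraries at 24 h were below all 4 at 12 h. SLC1A4 was not called at 12 h (log2 0.14, standard error 0.13, edgeR adjusted p = 0.592) and was higher by 0.98 (0.16, 1.97-fold) at 24 h, with adjusted p = 1.65e-04.

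SLC7A5 and SLC43A1 encode carriers of large neutral amino acids such as leucine, SLC7A5 as an exchanger joined to the SLC3A2 protein and SLC43A1 as a facilitator without it. SLC7A5 (ENSG00000103257, chromosome 16, 87830023 to 87869488, minus strand) had 329 and 313 CPM in EMD37 libraries at 12 h, against 217 and 283 CPM in vehicle libraries. At 24 h it had 449 and 368 CPM with EMD37, against 174 and 269.6 CPM with vehicle. Treated libraries were higher at both times, but the vehicle replicates lay far apart. SLC7A5 was not called at 12 h (log2 0.36, standard error 0.16, edgeR adjusted p = 0.181, though called under 4 of 14 alternatives) and rose by 0.88 (0.16, 1.85-fold) at 24 h, with adjusted p = 2.67e-04.

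SLC43A1 (ENSG00000149150, chromosome 11, 57484534 to 57515786, minus strand) had 113 to 199 reads per library. Its level was 18.3 and 15.5 CPM in EMD37 libraries at 12 h, against 11.5 and 12.2 CPM in vehicle libraries. In the 24 h libraries it was 19.3 and 18.3 CPM with EMD37, against 13.0 and 15.6 CPM with vehicle. Treated libraries were the higher ones at both times, by a margin that missed the threshold. The log2 difference was 0.51 (standard error 0.16, edgeR adjusted p = 0.0551) at 12 h and 0.40 (0.16, adjusted p = 0.0515) at 24 h. It was called higher under 3 of 14 alternatives at 12 h and 4 of 15 at 24 h, among them RLE scaling at 24 h (edgeR adjusted p = 0.0368).

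SLC7A1 encodes a carrier of arginine and lysine (ENSG00000139514, chromosome 13, 29509410 to 29595688, minus strand). It had 425 and 441 CPM in EMD37 libraries at 12 h, against 302 and 339 CPM in vehicle libraries. After 24 h it had 396 and 364 CPM with EMD37, against 258 and 348 CPM with vehicle. Treated libraries were higher at both times, narrowly so at 24 h. SLC7A1 rose by log2 0.44 (standard error 0.11) at 12 h and by 0.33 (0.11) at 24 h, with edgeR adjusted p = 0.0187 and 0.0235. Neither call was firm. At 12 h it ended without replicate A of vehicle (0.187), replicate A of EMD37 (0.115) or replicate B of EMD37 (0.152). At 24 h it ended without replicate A of vehicle (0.202, log2 0.16) or replicate A of EMD37 (0.105), and with only the groups compared in the fit (0.0736).

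SLC6A9 encodes a glycine transporter of the sodium- and chloride-coupled family (ENSG00000196517, chromosome 1, 43991500 to 44031467, minus strand) and had the fewest reads of the 10, from 14 to 101 per library. It had 7.56 and 5.57 CPM in EMD37 libraries at 12 h, against 2.24 and 3.51 CPM in vehicle libraries. In the 24 h libraries it had 10.7 and 9.36 CPM with EMD37, against 1.30 and 1.94 CPM with vehicle. The groups did not overlap in spite of the low counts. SLC6A9 rose by log2 1.18 (standard error 0.27, 2.26-fold) at 12 h and by 2.64 (0.29, 6.22-fold) at 24 h, with edgeR adjusted p = 0.0115 and 2.37e-06. The 12 h call ended without replicate A of vehicle (0.141) or replicate A of EMD37 (0.177) at that time. Exons of CCDC24 on the other strand overlap 7.8% of its exonic bases.

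**Figure D2:**
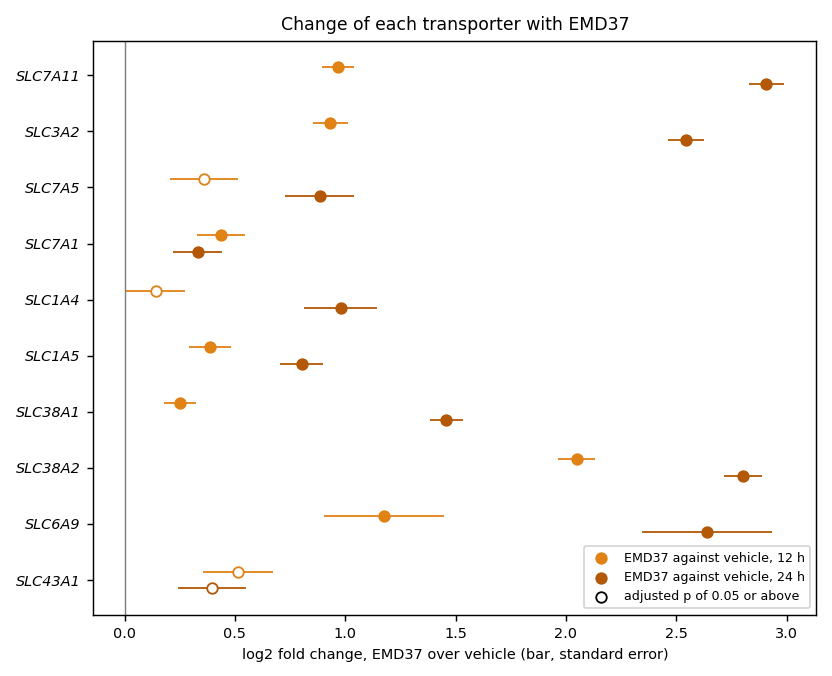
Points give the log2 fold change of EMD37 over vehicle (x axis) for each transporter at 12 h and 24 h, bars give the standard error, and open points have an adjusted p of 0.05 or above. SLC38A2 leads at 12 h with 2.05, and at 24 h SLC7A11 (2.91), SLC38A2 (2.80), SLC6A9 (2.64) and SLC3A2 (2.54) stand apart from the other members.

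Vehicle cells were not constant between 12 h and 24 h. In vehicle at 24 h against 12 h, 3 of the 10 transporters fell, against 3.25% of all genes called lower, and 1 rose, against 2.75% called higher. SLC1A4 fell by 1.70 on the log2 scale (standard error 0.16), SLC7A11 fell by 1.13 (0.07) and SLC38A1 fell by 0.58 (0.07), with edgeR adjusted p = 1.65e-05, 4.68e-07 and 3.92e-04. These 3 calls held under each of the 14 alternatives. Vehicle SLC38A2 rose by 0.35 (standard error 0.08, edgeR adjusted p = 0.0216). That call ended without vehicle replicate A (0.153) or B (0.188) of 12 h, without replicate B of EMD37 at 12 h (0.06) and with only the vehicle groups in the fit (0.0759). SLC3A2 (-0.27) and SLC1A5 (-0.33) missed the threshold, each at edgeR adjusted p = 0.0533, and were called lower with RLE scaling (0.0491 and 0.0401). Members called lower numbered 6 without vehicle replicate B at 24 h. The median was -0.30 for the 10 genes and 0.01 for all genes tested. All genes called in this comparison varied widely with the libraries used, from 34 to 1564 higher and from 55 to 929 lower when 1 library was left out.

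Within EMD37 cells, 4 transporters rose at 24 h against 12 h (15.5% of all genes called higher) and 1 fell (15.7% called lower). SLC3A2 rose by 1.34, SLC38A2 by 1.10, SLC7A11 by 0.81 and SLC38A1 by 0.63, with edgeR adjusted p of at most 6.86e-06. SLC1A4 fell by 0.86 (standard error 0.14, adjusted p = 2.30e-04). These 5 calls held under each of the 14 alternatives. SLC7A5 (0.35), SLC7A1 (-0.19), SLC1A5 (0.08), SLC6A9 (0.60) and SLC43A1 (0.15) did not pass, although SLC6A9 passed under 8 of the 14 alternatives. This comparison and the others share libraries, so their values are set side by side and not combined.

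**Figure D3:**
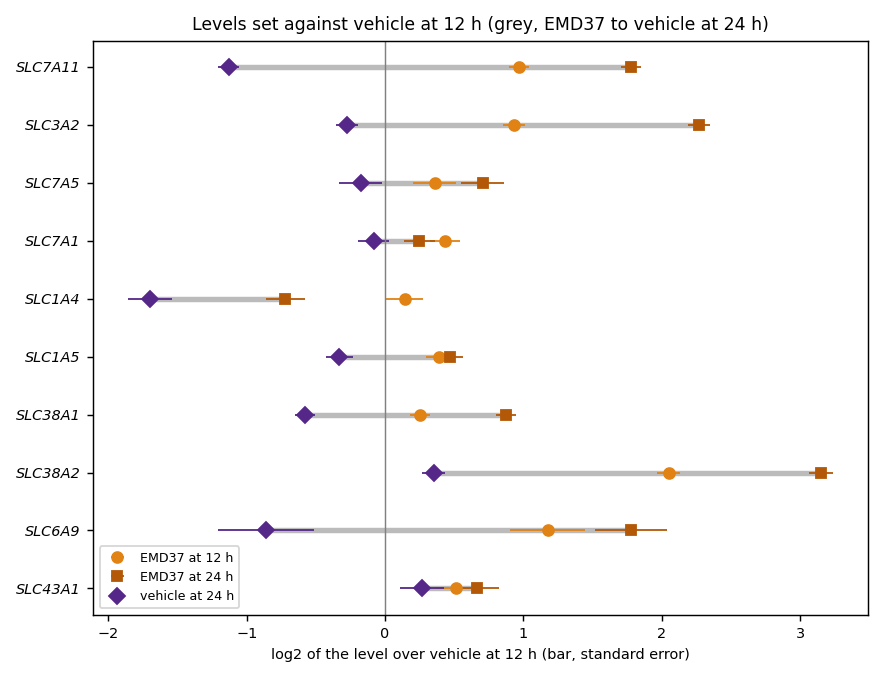
For each transporter the x axis gives the log2 level over vehicle at 12 h, for EMD37 at 12 h, EMD37 at 24 h and vehicle at 24 h, with standard errors as bars; the grey line joins EMD37 to vehicle at 24 h. For SLC7A11 the grey line spans both a rise with EMD37 (1.78) and a decline with vehicle (-1.13), while for SLC1A4 both ends lie below 0 (-0.72 and -1.70).

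Each level was also set against vehicle at 12 h, a description added after the values were seen and given without a test. EMD37 at 24 h differs from that baseline in both treatment and time, so these folds cannot separate drift from treatment. SLC7A11 with EMD37 at 24 h stood 3.43-fold over vehicle at 12 h, against 7.50-fold over vehicle at 24 h. SLC38A1 stood 1.84-fold over vehicle at 12 h, against 2.75-fold over vehicle at 24 h. SLC6A9 stood 3.43-fold over vehicle at 12 h, against 6.22-fold over vehicle at 24 h. For these genes the 24 h fold included a lower vehicle level as well as a higher treated one, although for SLC6A9 the vehicle difference of -0.86 missed the threshold (edgeR adjusted p = 0.152). SLC1A4 with EMD37 at 24 h was at 0.607 of vehicle at 12 h, below the 12 h vehicle libraries while above the 24 h ones. SLC3A2 differed less between the 2 baselines, with 4.82-fold over vehicle at 12 h and 5.83-fold over vehicle at 24 h. SLC38A2 went the other way, with 8.89-fold over vehicle at 12 h and 6.97-fold over vehicle at 24 h.

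The treatment by time interaction tested whether the EMD37 effect differed between the times. It was called for 7 of the 10 transporters, all with a larger effect at 24 h, against 7.96% of all genes called higher and 7.94% called lower. The difference in log2 effect was 1.94 for SLC7A11 (standard error 0.10), 1.61 for SLC3A2 (0.11), 1.21 for SLC38A1 (0.10) and 0.75 for SLC38A2 (0.11), with edgeR adjusted p of at most 3.02e-04. These 4 held under each of the 14 alternatives. SLC6A9 (1.46, adjusted p = 0.0253), SLC1A4 (0.84, 0.0131) and SLC1A5 (0.41, 0.0481) were called with less margin. Left-out libraries ended the call of SLC6A9 at edgeR adjusted p up to 0.172 (without vehicle replicate B or EMD37 replicate B at 12 h, or EMD37 replicate A or B at 24 h), of SLC1A4 up to 0.0725 (without EMD37 replicate A at 12 h or B at 24 h) and of SLC1A5 up to 0.249 (without vehicle replicate A or B or EMD37 replicate A at 12 h, vehicle replicate A at 24 h, or EMD37 replicate A or B at 24 h). SLC7A5 (0.52, adjusted p = 0.12), SLC7A1 (-0.10, 0.702) and SLC43A1 (-0.12, 0.777) did not pass.

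Levels were compared between genes as CPM per kilobase of annotated exon. With EMD37 at 24 h the order ran SLC38A2 (517 CPM per kilobase), SLC3A2 (242), SLC7A11 (186), SLC38A1 (162), SLC1A5 (108), SLC7A5 (86.0), SLC7A1 (49.4), SLC43A1 (5.33), SLC1A4 (2.00) and SLC6A9 (1.94). The libraries of SLC1A4 and SLC6A9 overlapped, and other neighbours did not. With EMD37 at 12 h SLC38A2 led (241), and SLC7A11 (106), SLC38A1 (105), SLC1A5 (102) and SLC3A2 (95.7) overlapped from neighbour to neighbour. With vehicle at 24 h SLC38A2 (74.3) was followed by SLC1A5 (62.1) and SLC38A1 (59.0), which overlapped, and SLC7A11 was seventh among the 10 at 24.8. With vehicle at 12 h SLC38A1 (88.3) led SLC1A5 (78.1) and SLC38A2 (58.2). SLC7A11, SLC7A5 and SLC3A2, at 54.4, 52.7 and 50.1, overlapped from neighbour to neighbour. SLC3A2 has 5178 bases of annotated exon but 2222 in its longest transcript, and its place depended on the length used. With the longest transcript as length it led with vehicle at 12 h (117 CPM per kilobase, rank 6 by all exons) and had rank 2 with EMD37 at 12 h (223, rank 5 by all exons). With vehicle at 24 h it had rank 2 (96.7, rank 5 by all exons), and with EMD37 at 24 h rank 2 by either length. Places of other members moved too. By the longest transcript SLC7A11 had rank 5 with EMD37 at 12 h, against rank 2 by all exons. With vehicle at 12 h SLC7A11 had rank 6, against rank 4 by all exons. With EMD37 at 24 h SLC38A1 (201) stood above SLC7A11 (186) by the longest transcript.

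The balance between the SLC3A2 heavy chain and its light chains was followed within each library, where the scaling of libraries cancels. SLC3A2 over the sum of 6 light chains (SLC7A5, SLC7A6, SLC7A7, SLC7A8, SLC7A10 and SLC7A11) was 0.506 and 0.542 in EMD37 libraries at 12 h, against 0.450 and 0.425 in vehicle libraries. After 24 h it was 0.882 and 0.845 with EMD37, against 0.574 and 0.486 with vehicle. The ratio was higher with EMD37 at both times without overlap. These ratios are given as a description, without a test. SLC3A2 over SLC7A11 alone did not follow that order at 24 h, at 1.38 and 1.22 with EMD37, against 1.58 and 1.76 with vehicle, where SLC7A11 had dropped. At 12 h it was 0.875 and 0.928 with EMD37, against 0.896 and 0.948 with vehicle, so the groups overlapped.

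SLC7A11 made up 57.8% and 58.5% of the light chain level per kilobase in EMD37 libraries at 12 h, against 50.2% and 44.8% in vehicle libraries. At 24 h its share was 63.9% and 69.3% with EMD37, against 36.2% and 27.7% with vehicle. The share of SLC7A5 was 33.4% and 28.0% with EMD37 at 24 h, against 53.0% and 63.8% with vehicle. These are shares of a whole, so a larger SLC7A11 share lowers the rest. SLC7A5 mRNA itself was higher with EMD37 at 24 h, with means of 408 CPM against 222 CPM with vehicle. SLC7A6, a light chain for cationic and neutral amino acids, had 53.8 ± 0.09 CPM with EMD37 and 55.4 ± 0.45 CPM with vehicle at 24 h (SD, n = 2). SLC7A7, SLC7A8 and SLC7A10 each contributed below 0.25%. The leading light chain mRNA per kilobase was thus SLC7A11 with EMD37 and SLC7A5 with vehicle at 24 h, with the same leading genes when the longest transcript gave the length.

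**Figure D4:**
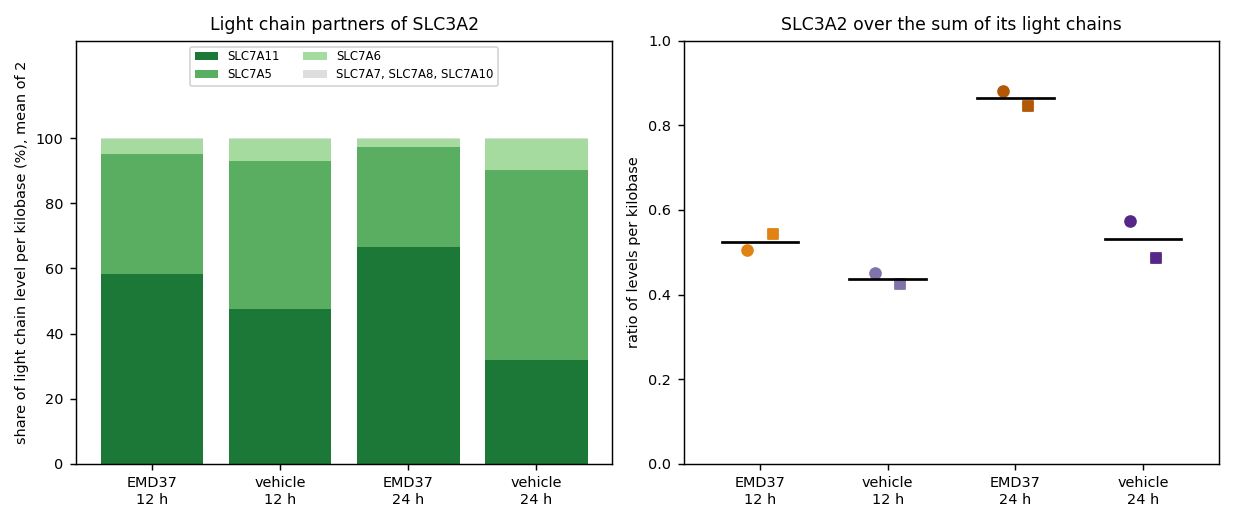
Left, the mean share (%) of each light chain in the light chain level per kilobase, by group; right, SLC3A2 over the sum of its light chains in each library (circle, replicate A; square, replicate B; line, mean). SLC7A11 takes the largest share with EMD37 at both times, and the ratio is highest with EMD37 at 24 h (0.864 ± 0.026, SD, n = 2). With vehicle at 12 h the mean shares of SLC7A11 (47.5%) and SLC7A5 (45.7%) are close, and replicates A and B differ in which leads.

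Likeness of pattern was measured as the root mean square distance of log2 levels over the 8 libraries, each gene centred on its 4 vehicle libraries. Among tested genes with a mean of at least 5 CPM, those nearest to SLC7A11 were UNC13A (0.16), CCND2 (0.20), CTH (0.27), SLC6A9 (0.29) and MXD1 (0.35). CTH, which encodes the cysteine-forming enzyme cystathionine gamma-lyase, had 28.5 CPM in EMD37 libraries at 12 h, against 9.73 CPM in vehicle libraries, and 45.1 CPM with EMD37 at 24 h, against 5.65 CPM with vehicle. CCND2, a cyclin gene, had 36.3 CPM with EMD37 at 12 h, against 24.3 CPM with vehicle, and 67.8 CPM with EMD37 at 24 h, against 8.64 CPM with vehicle. Both had their lowest mean in vehicle at 24 h and their highest with EMD37 at 24 h, as SLC7A11 did. Since they were picked by nearness to SLC7A11 over these same libraries, this shared order is built into the choice. Within the 10 genes, SLC7A11 and SLC6A9 were each other's nearest (0.29), as were SLC7A5 and SLC1A5 (0.18) and SLC7A1 and SLC43A1 (0.20). SLC1A4 was the farthest from any other member (0.58, to SLC1A5).

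Other transporter genes were followed as lists. Of 23 other amino acid transporters of the plasma membrane 12 were tested. Of the rest, 10 had too few reads for the filter and 1, SLC6A14, lay outside the count table used here. Of the 12, 2 rose (16.7%, against 5.27% of all genes) and 0 fell (against 3.43%) at 12 h, with a median log2 change of 0.28. The fall of 1 further gene had an unadjusted p below 0.05 by edgeR, and DESeq2 called 1 higher and 0 lower. At 24 h 3 rose and 1 fell, with a median of 0.33. These are 25.0% and 8.33% of the list, against 19.6% and 21.1% of all genes, and DESeq2 called 2 higher and 1 lower. SLC6A6, a taurine transporter, rose by 0.51 at 12 h and by 1.56 at 24 h, and SLC36A4 rose by 0.29 and 0.55. SLC7A7 rose by 1.33 at 24 h, with 1.52 CPM with EMD37 and 0.593 CPM with vehicle, and SLC16A10, a carrier of aromatic amino acids, fell by 1.47. In vehicle at 24 h against 12 h edgeR called 0 of the 12 at the adjusted threshold and 3 at an unadjusted p below 0.05, 2 of them higher, and DESeq2 called 0. Of all genes, 2.75% were called higher and 3.25% lower in that comparison.

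Carriers of inner membranes formed a further list. Of 16 tested genes for lysosomal and mitochondrial carriers, 1 rose (SLC25A29, 0.63) and 1 fell (SFXN1, -0.39) at 12 h, with a median of 0.06. These 12 h calls are 6.25% of the list in each direction, against 5.27% and 3.43% of all genes. At 24 h 5 rose and 3 fell, with a median of 0.17. The 24 h calls are 31.25% and 18.75% of the list, against 19.6% and 21.1% of all genes, and DESeq2 called 5 higher and 2 lower. The 5 that rose at 24 h act in the lysosome, namely SLC38A7 (1.27), the cystine exporter CTNS (0.84), the arginine-linked mTORC1 sensor SLC38A9 (0.79), the cationic amino acid exporter SLC66A1 (0.65) and SLC15A4 (0.42). The 3 that fell act in mitochondria, namely the ornithine carrier SLC25A15 (-0.81), the aspartate/glutamate carrier SLC25A12 (-0.44) and the serine transporter SFXN1 (-0.33). All 8 are named, beyond the usual 6, because their organelles were noticed after the values were seen, and no test of a difference between organelles was made. Of the 8 not called, mitochondrial SLC25A22 had 0.59 and lysosomal MFSD12 and SLC15A3 had 0.14 and 0.13.

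Regulators of transporter genes mostly rose. Of 16 tested, 11 rose (68.75%, against 5.27% of all genes) and 0 fell (against 3.43%) at 12 h, with a median of 0.88. At that time 0 were lower at an unadjusted edgeR p below 0.05 or by DESeq2. Of the same 16, 14 rose and 2 fell at 24 h (87.5% and 12.5%, against 19.6% and 21.1% of all genes), with a median of 1.30, while DESeq2 called 14 higher and 0 lower. Those with the smallest p at 12 h were DDIT3 (3.29), TRIB3 (2.04), ATF3 (2.71), MYC (1.10) and PPP1R15A (1.30). ATF4, named for its role and not by its p, rose by 0.72 at 12 h and by 1.09 at 24 h (edgeR adjusted p = 4.96e-06 and 9.43e-09). At 24 h MYC, which is known to drive SLC7A5 and SLC1A5, rose by 1.55, and BACH1, a repressor at antioxidant response elements, rose by 1.47. The 2 that fell at 24 h were the eIF2α kinase genes EIF2AK1 (-0.34) and EIF2AK4 (-0.29), named because they were the only falls of the list. Other eIF2α kinase genes, named beside them, went up. EIF2AK3 rose by 1.55 at 12 h and by 1.14 at 24 h, and EIF2AK2 rose by 0.47 at 24 h. In vehicle at 24 h against 12 h MYC rose by 0.46, while TRIB3 (-0.45) and PPP1R15B (-0.41) fell and ATF4 was not called (-0.18, edgeR adjusted p = 0.16).

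Among 8 tested genes for trafficking and turnover of the transporters 1 rose at 12 h (12.5%, against 5.27% of all genes), NEDD4L by 0.50 (median 0.17). At 24 h 4 rose and 1 fell (median 0.23), or 50% and 12.5%, against 19.6% and 21.1% of all genes. The ubiquitin ligase genes NEDD4 and NEDD4L, whose products act on membrane transporters, rose by 0.88 and 0.85 at 24 h, RNF5, an ER ubiquitin ligase known to target SLC1A5 and SLC38A2 proteins, rose by 0.52, and SGK1 rose by 0.30. CD44, whose product is known to stabilise SLC7A11 protein, fell by 0.39.

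Genes that act first on the imported amino acids rose in part. Of 17 tested, 4 rose (23.5%, against 5.27% of all genes) and 0 fell (against 3.43%) at 12 h, with a median of 0.24. At that time 0 were lower at an unadjusted edgeR p below 0.05 or by DESeq2. At 24 h 9 rose and 3 fell, with a median of 0.36. The 24 h calls are 52.9% and 17.6% of the list, against 19.6% and 21.1% of all genes, and DESeq2 called 8 higher and 2 lower. Asparagine synthetase ASNS rose by 2.55 and 2.49 at the 2 times, CTH by 1.54 and 2.99, the alanine aminotransferase GPT2 by 0.62 and 1.10 and the serine to glycine enzyme SHMT2 by 0.41 and 0.89. GCLM, the modifier subunit of glutathione synthesis from cysteine, rose by 0.89 at 24 h, while cytosolic SHMT1 fell by 0.83, GSS by 0.43 and GOT2 by 0.25. In vehicle at 24 h against 12 h 5 of the 17 fell (29.4%, against 3.25% of all genes) and 0 rose (against 2.75%). By edgeR 1 was higher at an unadjusted p below 0.05, and DESeq2 called 0 higher. CTH (-0.78), GCLM (-0.60), BCAT1 (-0.50) and GPT2 (-0.41) were among the falls.

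**Figure D5:**
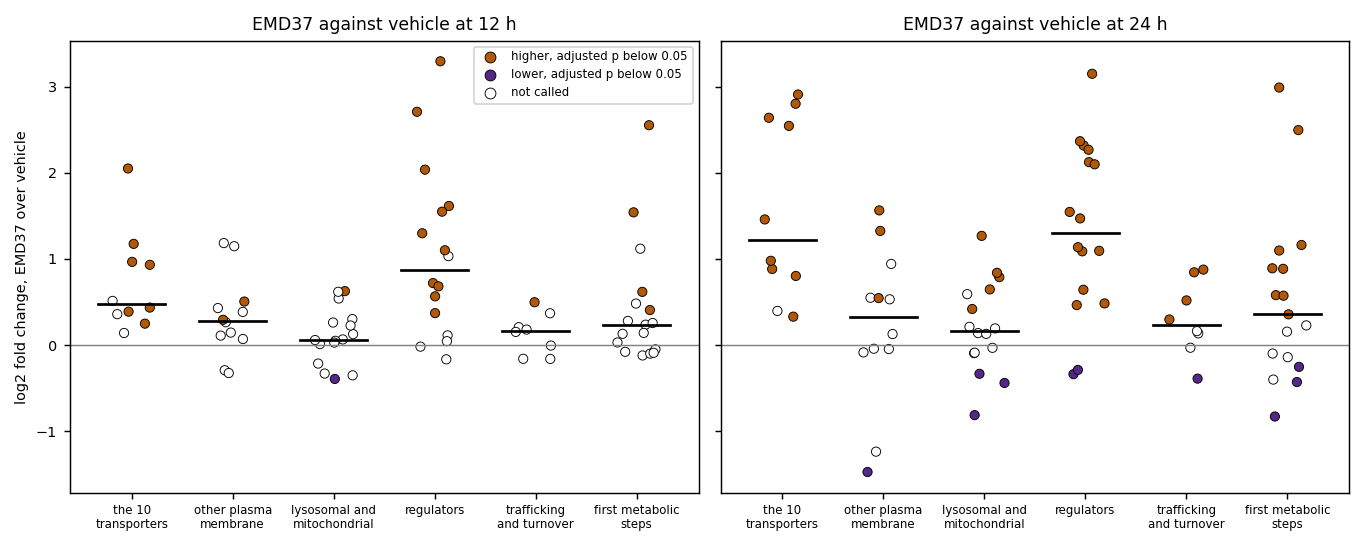
Each point is 1 tested gene's log2 fold change of EMD37 over vehicle (y axis) at 12 h (left) and 24 h (right), by gene list (x axis); filled points passed the adjusted threshold of 0.05 and bars are medians. At 24 h the medians were 1.22 for the 10 transporters, 0.33 for other plasma membrane transporters, 0.17 for lysosomal and mitochondrial ones, 1.30 for regulators, 0.23 for trafficking and 0.36 for first metabolic steps.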

How the data were processed

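RNA-seq of MDA-MB-231 cells covered 8 libraries, 2 per group. Per the labels' protocols they were made with the TruSeq V2 kit, an unstranded chemistry. The submitters' processing notes name FastQC, STAR, DESeq2 and hg38. The read counter and its strand rule, not given in the sources used here, could not be checked. The authors deposited whole-number read counts (count), the input to every test, and normalized counts (signal), in which each library's reads had been divided by a size factor of its own. The count table used here ends part-way through the Ensembl IDs. Reads of 6912 further genes were recovered from the signal values (55296 of 55296 whole within 0.01) and entered an alternative. Recovered genes made up 8.26% to 11.66% of reads.

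Symbols, positions and exon lengths came from GENCODE 29 on GRCh38 and a table of current symbols. Genes were filtered in edgeR 4.0.16 (R 4.3.3) by filterByExpr at a minimum count of 10, which left 14850. TMM factors ran from 0.948 to 1.03, and 1 mean per group was fitted to all 8 libraries (common dispersion 0.00537). On simulated counts for the 24 h comparison, 79 of 100 genes changed 2-fold and 95 of 100 changed 4-fold were called. The 10 genes and the other lists were chosen with earlier results of these data known. The text names all 10, up to 6 called genes per list and comparison by smallest p, and others where it says so. Alternatives were RLE scaling, DESeq2 1.42.0, no filter, a replicate block, only the groups compared, recovered genes and each library left out. For the interaction, a filter with a higher minimum count took the place of only the groups compared. Replicates differed beyond counting noise, most of all in vehicle at 24 h, with a chi-square value of 7.81 per gene. It was 3.31 in EMD37 at 24 h, 3.17 in vehicle at 12 h and 2.73 in EMD37 at 12 h. Vehicle at 24 h enters the 24 h effects, vehicle over time and the interaction, and also the shared estimate of spread.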

Additional observations from a re-analysis of the deposited data

Results flagged for a closer look

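The EMD37 effect differed between 12 h and 24 h, by edgeR's test of the difference itself, for 7 of the 10 transporters. Of all genes tested, 7.96% were called higher and 7.94% lower. Calls held under each of the 14 alternatives for SLC7A11, SLC3A2, SLC38A1 and SLC38A2, but not for SLC6A9, SLC1A4 and SLC1A5. The log2 effect at 24 h exceeded that at 12 h by 1.94 for SLC7A11, 1.61 for SLC3A2, 1.46 for SLC6A9, 1.21 for SLC38A1, 0.84 for SLC1A4, 0.75 for SLC38A2 and 0.41 for SLC1A5. The vehicle level of SLC7A11, SLC38A1 and SLC1A4 was itself lower at 24 h than at 12 h, at 239 against 524, 591 against 884 and 7.05 against 22.9 CPM, and its part in these differences was not tested. For SLC38A2 the vehicle level was higher at 24 h, at 490.3 against 384 CPM. No group has enough libraries for a test of single outlying libraries.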

How the results depend on the processing

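Across 710 recalculations of the 50 member values (10 genes in 5 comparisons), 633 kept direction and side of the threshold, 35 lost the call, 35 gained it and 7 changed sign, none of these 7 a call. The cause was not tested. With 1 library left out the members called higher ran from 3 to 9 at 12 h, from 4 to 8 in the interaction and from 0 to 1 in vehicle over time, where those called lower ran from 3 to 6. Over all genes the calls then ran from 387 to 1271 higher and 106 to 958 lower at 12 h, 1418 to 3049 higher and 1328 to 2706 lower in EMD37 over time, 34 to 1564 higher and 55 to 929 lower in vehicle over time, and 677 to 1615 higher and 513 to 1621 lower in the interaction. With only the groups compared in the fit, 1394 rose and 1109 fell at 12 h, and 42 rose and 83 fell in vehicle over time, where 0 members were called higher. DESeq2 called 333 genes lower at 12 h, and no filter called 623 higher in vehicle over time. In vehicle over time 5 members were called lower with RLE scaling, with DESeq2 and without a filter. With the longest transcript as length, SLC3A2 over its light chains was 1.19 with EMD37 and 0.984 with vehicle at 12 h. At 24 h it was 1.97 with EMD37 and 1.18 with vehicle. Within each time EMD37 stood above vehicle by either length. Means of EMD37 at 12 h and vehicle at 24 h changed places, at 0.524 and 0.530 by all exons.

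Values that changed sign did so with 1 library left out. They ran from -0.0408 to 0.223 for SLC1A5 in EMD37 over time, from -0.508 to 0.0940 for SLC7A5 and from -0.296 to 0.104 for SLC7A1 in vehicle over time, and from -0.277 to 0.124 for SLC7A1 and from -0.218 to 0.0119 for SLC43A1 in the interaction. The replicate letters share no stated origin, and A minus B differences correlated from -0.16 to 0.16 between groups. With the replicate block 6 members were called higher at 12 h, 9 at 24 h and 7 in the interaction. Of all genes, that block called 705 higher at 12 h, 2858 at 24 h and 1072 in the interaction. A crossed pairing at 24 h, added after the data were seen, called 3243 genes higher and 3463 lower, with 10 members higher and 0 lower. Low counts limit SLC6A9, SLC1A4 and SLC43A1.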
